A study of Mus musculus with 8 samples.

Results

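Hyaluronan is the large sugar polymer that swells the cardiac jelly of the early heart, and 10 genes for its synthesis, binding and turnover were followed here in the mouse atrioventricular canal: Has1, Has2, Has3, Hapln1, Vcan, Cd44, Hyal1, Hyal2, Ugdh and Ugp2. They were chosen by name, with earlier results of these data known. Their values were read from every probe set annotated with that gene symbol alone. Of the 10 genes, 9 had such a probe set, out of 18193 genes so named on the array, and together they had 27 probe sets. Hyal1 had none, because the 2 probe sets that name it also name Naa80, and it was not analysed here.

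The 8 samples were pools of 10 microdissected atrioventricular canals each, 4 control and 4 mutant. Control pools carried floxed Gata4 alleles (Gata4flox/flox) with no Cre named in the labels. Mutant pools carried these alleles with the transgene T2Cre, in which Cre is driven by the promoter of Tie2 (official symbol Tek) in endothelium, so that Gata4, a zinc finger transcription factor, was deleted in endothelial cells and in the mesenchyme of the cushions, which arises from them. The muscle of the canal was not targeted, every animal had a mixed C57BL6/129 background, and no embryonic age is stated in the sources used here. Loss of Gata4 and presence of Cre cannot be told apart in this design. The design text says that 2 noisy control samples were excluded without naming them. All 4 control arrays of the deposited table were used.

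Hyaluronan chains are made at the cell membrane by the synthases Has1, Has2 and Has3 from activated sugars, one of which, UDP-glucuronic acid, is supplied by Ugp2 and then Ugdh. Outside the cell the link protein Hapln1 fastens the chains to the proteoglycan versican (Vcan), Cd44 is a surface receptor for them, and the hyaluronidases Hyal1 and Hyal2 cut them. In the endocardial cushions this matrix fills the space that mesenchyme enters as the valves form, and mouse embryos without Has2 lack cushions.

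Gata4 itself could not be used to check the labels in whole canals, whose untargeted muscle also expresses it. Deposited signals of probe set 1418863_at were 2303, 1855, 2375 and 2849 in the controls and 2228, 2589, 2501 and 2003 in the mutants (change -0.15, SE 0.11, limma adjusted p = 0.585). A dimmer one, 1418864_at, was above background on 2 control and 4 mutant arrays (change 0.98, SE 0.45, limma adjusted p = 0.388), and the sources used here place neither probe set relative to the floxed part. Control arrays were less uniform than mutant arrays. Bacterial control probe sets were taken as a measure of background, on the assumption that no RNA for them was added. They had median signals of 158 and 135 on controls 2 and 3. The medians of the remaining controls were 39.3 and 19.4, and those of the mutant arrays 4.0 to 26.0. Weights estimated for the fit were lowest for controls 2 and 3 (0.302 and 0.350) and lay between 0.867 and 2.80 on the other 6 arrays. A probe set was taken as above background on an array when it exceeded the 90th percentile of those 27 control probe sets there. By this measure 20 of the 27 hyaluronan probe sets were above background on all 8 arrays. The canal's own cell types were present. All 10 cardiomyocyte markers and all 10 cushion mesenchyme markers, and 7 of 10 endothelial markers, were above background on every array. So were 6 of 9 tested erythroid markers. Of 6 liver and foregut markers 3 were tested, and mutant 1 had the highest mutant signal for each. Deposited signals of Apoa1 were 681 in mutant 1, 18.2 to 32.8 in the other mutants and 130 to 382 in the controls. The part of such cells in the hyaluronan values was not tested.

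Hapln1 was the one hyaluronan gene with probe sets past the threshold, and Cd44 was the one whose 2 probe sets above background on all arrays were higher in every mutant pool. The sequences before their start sites are shown because the deleted gene encodes a factor that binds GATA motifs. Each run holds the 250 bases before the start site, 5′ to 3′, from RefSeq on build GRCm38.p6. Capitals mark a match on either strand to one of 4 motifs, namely AGATAA and AGATAG, or the versions with a leading T, which are TGATAA and lastly TGATAG.
Hapln1, chr13:89540386-89540635, plus strand: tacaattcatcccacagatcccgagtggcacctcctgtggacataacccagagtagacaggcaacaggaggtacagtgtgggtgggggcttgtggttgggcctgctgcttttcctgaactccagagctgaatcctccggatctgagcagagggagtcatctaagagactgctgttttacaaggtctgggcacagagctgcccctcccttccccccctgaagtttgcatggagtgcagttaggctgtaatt
Cd44, chr2:102901666-102901915, minus strand: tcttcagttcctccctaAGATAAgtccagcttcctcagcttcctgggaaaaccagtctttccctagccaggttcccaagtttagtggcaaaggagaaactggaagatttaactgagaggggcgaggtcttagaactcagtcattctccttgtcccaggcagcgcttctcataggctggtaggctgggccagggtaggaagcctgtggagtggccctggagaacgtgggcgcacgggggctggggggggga
The Hapln1 stretch held no match, and the Cd44 stretch held 1, AGATAA, starting 233 bases before the start site. Of 32851 promoter stretches of this length, 26.5% held a match, as did 3 of the 9 stretches listed for 8 of the hyaluronan genes. A match is a run of letters and not a measured binding site. In the RefSeq order of protein-coding genes Hapln1 and Vcan are direct neighbours, as are Hyal2 and Hyal1.

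**Figure D1:**
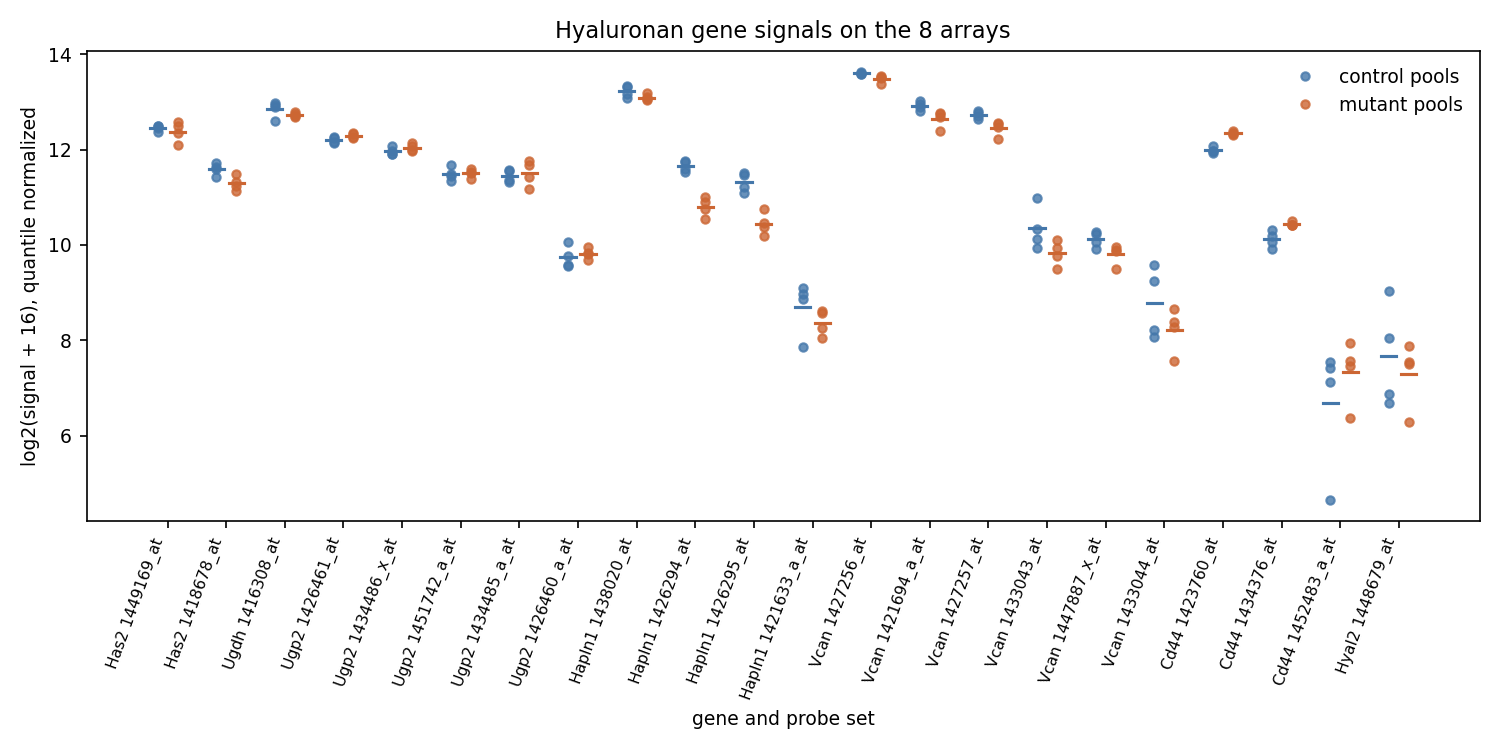
The y axis gives log2(signal + 16) after quantile normalization and the x axis the 22 tested probe sets of 7 hyaluronan genes. Each point is 1 pool, lines are means of 4, and heights of different probe sets are not comparable. The mutant pools lie below all controls for 2 Hapln1 and 3 Vcan probe sets and above all controls for 2 Cd44 probe sets. The direction of those 3 Vcan probe sets turned when each array was centred on its median.

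Hapln1, which locks hyaluronan and versican together, fell in the mutant pools on 2 of its 4 probe sets. Deposited signals of probe set 1426294_at were 3548, 2915, 2675 and 3133 in controls 1 to 4 and 1738, 2114, 2064 and 1536 in mutants 1 to 4. Every mutant pool was below every control pool. On the normalized log2 scale it went from 11.66 ± 0.12 to 10.80 ± 0.20 (SD, n = 4 each), a change of -0.90 (SE 0.12, limma adjusted p = 0.00672), and the controls were 1.87-fold higher. Probe set 1426295_at had signals of 2962, 2414, 1930 and 2514 in the controls and 1332, 1370, 1849 and 1173 in the mutants, again without overlap. It also changed by -0.90 (SE 0.15, limma adjusted p = 0.0437), from 11.32 ± 0.21 to 10.44 ± 0.23. In whole canals, fewer cells that make a transcript and less transcript in each cell cannot be told apart.

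The remaining Hapln1 probe sets did not pass. The dimmest, 1421633_a_at, had signals of 501, 611, 370 and 437 in the controls and 267, 269, 359 and 199 in the mutants. These deposited signals did not overlap, but after quantile normalization control 3 lay below every mutant, and the change was -0.51 (SE 0.25, limma adjusted p = 0.411). It depended on single arrays, at -0.05 without control 1, -0.19 without control 4 and -0.72 without control 3. The brightest, 1438020_at, had signals of 10465, 8929, 7468 and 9435 in the controls and 8775, 10203, 9146 and 9013 in the mutants, which overlapped. Its change was -0.16 (SE 0.06, limma adjusted p = 0.294), and with median-centred arrays, described with Vcan, its direction turned. Both probe sets that passed were designed from the same sequence record, and the brightest from a different one, per the platform annotation. The sources used here do not say which part of the transcript each one reads.

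Apart from the offset of 16, a log2 ratio of 2 probe sets on the same array does not depend on that array's scaling factor. It can still depend on background, which was highest on controls 2 and 3. Relative to the brightest Hapln1 probe set, 1426294_at lay between -1.61 and -1.48 in the controls and between -2.54 and -2.14 in the mutants, a difference of -0.76. For 1426295_at the ranges were -1.94 to -1.82 and -2.93 to -2.30, a difference of -0.82, and for 1421633_a_at they were -4.38 to -3.83 and -5.39 to -4.61, again a difference of -0.82. The ratios among these 3 probe sets differed by only -0.06, -0.06 and -0.0042 between groups. Each of the first 3 differences had an exact permutation p of 0.0286 (two-sided), the smallest that groups of 4 allow. Over all 33 such pairs of probe sets of 1 hyaluronan gene, the smallest adjusted p was 0.157, so none of them passed. An adjusted p under 0.05 would have needed most of the 33 pairs to reach the smallest exact p. Not passing therefore says little about any single pair. On this within-array scale the 3 dimmer probe sets had similar differences, although the normalized change of 1421633_a_at was unstable. In nearly all 33 pairs the dimmer probe set fell relative to the brighter one in the mutants. For Ugp2 1426460_a_at relative to 1426461_at the difference was -0.27. The exceptions were Ugp2 1434485_a_at relative to 1451742_a_at (0.03) and Vcan 1447887_x_at relative to 1433043_at (0.12). Many of the pairs share a probe set, so they are not independent. Some differences were close to 0, such as -0.01 for Ugp2 1434486_x_at relative to 1426461_at. How often the dimmer probe set falls over all genes of the array was not examined. The part of background in these ratios was not tested.

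**Figure D2:**
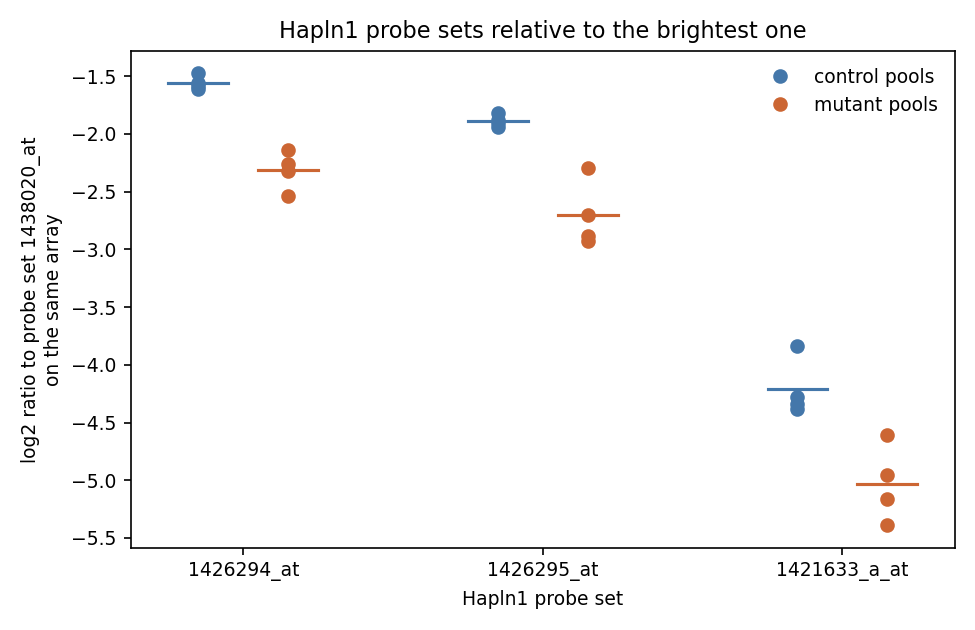
The y axis gives the log2 ratio of each Hapln1 probe set to the brightest one, 1438020_at, on the same array, and the x axis the 3 dimmer probe sets. Points are pools and lines are means of 4. Mutant pools lie below control pools for all 3, with differences of -0.76, -0.82 and -0.82. The dimmer probe set had a negative difference in nearly all pairs compared, also for other hyaluronan genes, but many pairs share a probe set.

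The change of both lower Hapln1 probe sets was negative in 19 of the 20 alternatives tried, and the call was lost in several. When arrays were centred on their medians the changes were 0.72 and 0.74, which is -0.41 and -0.39 relative to the median change of 1.13 over all tested probe sets (limma adjusted p = 0.235 and 0.262 relative to it). With plain eBayes the adjusted p values were 0.294 and 0.350, and with an offset of 1 that of 1426295_at was 0.0783. With the noisy controls 2 and 3 left out, which leaves 2 controls, the changes were -0.90 and -0.93 with limma adjusted p values of 0.0941 and 0.283. Probe set 1426295_at also missed the threshold without control 2 (adjusted p = 0.0588), without mutant 1 (0.0846) or without mutant 2 (0.0601), whereas 1426294_at passed with any 1 array left out (0.00101 to 0.0175). The mean 3 prime to 5 prime log2 ratio of Gapdh and Actb, a measure of RNA integrity, was 0.769 to 0.895 in controls and 0.806 to 0.963 in mutants. As a covariate it left 1426294_at past the threshold (-0.93, limma adjusted p = 0.0268) and 1426295_at not (-1.02, adjusted p = 0.0984).

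Markers of the cells that fill the cushions moved with Hapln1. The summed normalized signal of 10 cushion mesenchyme markers, each on its brightest probe set, was 33982 to 35515 in the controls and 24824 to 30307 in the mutants, and 8 of the 10 had negative changes (median -0.58). Over all tested probe sets 46.2% of changes were negative. Neither the mesenchyme sum nor its part in the Hapln1 result was tested. No mesenchyme marker passed singly in limma, and all 10 were above background on every array. The sum of 10 endothelial markers was 13951 to 14732 in the controls and 12148 to 12860 in the mutants. Yet 6 of the 10 had positive changes (median 0.15), and 1 marker, Tek itself, passed as lower. Tek was the brightest of the 10, with a mean log2 value of 12.53 in the controls and 11.83 in the mutants. Npr3 was also lower without overlap (change -0.56, SE 0.17, limma adjusted p = 0.250), whereas Kdr and Tie1 were higher without overlap. The lower sum thus mainly follows Tek and does not describe the other markers as a whole.

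Genes whose pattern over the 8 arrays was most like that of Hapln1 1426294_at were Erbb3 (Pearson r = 0.97), a neuregulin receptor, then Limch1 (0.97), Tnc (0.97), Igf1 (0.96) and Sox9 (0.96), among 12903 probe sets above background on every array. Their changes were -1.12, -0.69, -0.83, -0.92 and -0.54, with no overlap between groups, and of the 5 only Erbb3 passed (limma adjusted p = 0.0183). The arrays share the group difference, which alone raises such an r. With group means removed, the nearest were Ncam1 (r = 0.96), Osbpl9 (0.95), Chfr (0.94), Plaat3 (0.94) and 4930456A14Rik (0.94), a list with no gene of the first.

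Versican, the proteoglycan that Hapln1 ties to hyaluronan, had 8 probe sets, of which 6 were tested. All 6 had negative changes, from -0.13 to -0.42, and none passed. On the normalized log2 scale the brightest, 1427256_at, was at 13.62, 13.59, 13.59 and 13.63 in controls 1 to 4 and 13.53, 13.50, 13.55 and 13.39 in mutants 1 to 4. No mutant pool reached a control pool on this scale, and the change was -0.13 (SE 0.05, limma adjusted p = 0.351). Probe set 1421694_a_at had a change of -0.27 (SE 0.10, limma adjusted p = 0.315) and 1427257_at by -0.27 (SE 0.09, limma adjusted p = 0.267), also without overlap. For all 3 the deposited signals overlapped between groups, so the separation was seen only after quantile normalization. The direction of these 3 depended on scaling. Centring every array on its own median gave all tested probe sets a median change of 1.13, and these 3 then lay 0.40, 0.18 and 0.17 above that median.

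Dimmer Vcan probe sets spread more widely. Probe set 1433043_at had a change of -0.41 (SE 0.18), 1447887_x_at by -0.42 (SE 0.16) and 1433044_at by -0.31 (SE 0.31), with limma adjusted p values of 0.370, 0.313 and 0.697, and the groups overlapped for each. For 1433044_at the noisy arrays set the control mean, at log2 9.59 and 9.24 on controls 2 and 3 against 8.07 and 8.21 on controls 1 and 4. Without these 2 controls its change was -0.05 with array weights and 0.09 without them, and with median-centred arrays its change relative to the median change was -1.44 (limma adjusted p = 2.24e-05). The other two Vcan probe sets were above background on at most 1 array of a group and were removed by the filter on dim probe sets.

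Has2, the main hyaluronan synthase of the cushions, was bright on both of its probe sets. Probe set 1449169_at had deposited signals of 5969, 4411, 4948 and 5825 in the controls and 6383, 5725, 6097 and 4649 in the mutants, which overlapped. Its change was -0.12 (SE 0.11, limma adjusted p = 0.684), and 0.02 without mutant 4. Probe set 1418678_at stood on the normalized log2 scale at 11.71, 11.60, 11.63 and 11.43 in controls 1 to 4 and 11.49, 11.31, 11.24 and 11.13 in mutants 1 to 4. Here 1 mutant value lay within the control range, and the change was -0.35 (SE 0.10, limma adjusted p = 0.244). Relative to 1449169_at on the same array, 1418678_at was lower in all 4 mutants than in any control, by 0.26 on average (exact permutation p = 0.0286, two-sided, adjusted p = 0.157 over the 33 pairs). A relative fall of the dimmer probe set, in some cases close to 0, was seen in nearly all of these pairs, which are not independent. With arrays centred on their medians both probe sets lay above the median change of all probe sets, by 0.39 and 0.13.

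Has1 and Has3 had 1 probe set each, and neither was bright enough to be tested. Has1 signals were 14.6, 206, 509 and 10.2 in controls 1 to 4 and 77.7, 50.3, 37.6 and 10.6 in mutants 1 to 4. Only 1 control and 3 mutant arrays exceeded background, and its 2 highest signals came from the arrays with the highest background. Has3 signals were 90.2, 110 (control 2), 83.4 and 12.1 in the controls and 83.3, 53.4, 2.1 and 46.5 in the mutants, and it exceeded background on 0 control and 3 mutant arrays. No size of change is given for either.

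Genes that supply the sugar precursor had small changes. Ugdh, which oxidises UDP-glucose to UDP-glucuronic acid, stood on the log2 scale at 12.89, 12.60, 12.93 and 12.98 in the controls and 12.71, 12.75, 12.79 and 12.69 in the mutants. Its mutant values lay within the control range, and the change of -0.15 did not pass (SE 0.06, limma adjusted p = 0.356); it lay 0.50 above the median change with median-centred arrays. Ugp2, which makes UDP-glucose, had 5 probe sets, all above background on all arrays. Their changes ran from -0.02 to 0.09, with SEs of 0.07 to 0.15 and limma adjusted p values of 0.628 to 0.989. The direction of the 2 probe sets nearest to 0, 1451742_a_at and 1426460_a_at, each turned under 7 of the 20 alternatives.

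Cd44, the main cell surface receptor of hyaluronan, had the opposite sign. Probe set 1423760_at had deposited signals of 4101, 3281, 3705 and 4262 in controls 1 to 4 and 5295, 5884, 5562 and 5352 in mutants 1 to 4. All mutant pools were above all control pools. On the normalized log2 scale it went from 11.99 ± 0.07 to 12.34 ± 0.04 (SD, n = 4 each), a 1.28-fold difference that narrowly missed the threshold (change 0.36, SE 0.07, limma adjusted p = 0.0654). It passed with an offset of 64 (adjusted p = 0.0459), on the authors' scaling (0.45, adjusted p = 0.0420) and without control 1 (0.0458), control 3 (0.0243) or control 4 (0.0387). Without controls 2 and 3 the change was 0.36 with an adjusted p of 0.317.

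A second Cd44 probe set, 1434376_at, stood at log2 10.32, 9.91, 10.07 and 10.20 in the controls and 10.43, 10.42, 10.50 and 10.42 in the mutants. These also did not overlap, and the change was 0.24 (SE 0.12, limma adjusted p = 0.411). On the same array the ratio of this probe set to the brighter one was lower in the mutants by 0.19 on average (exact permutation p = 0.0286, two-sided, adjusted p = 0.157), so the brighter one had the larger difference between groups. The dimmer probe set fell, in some cases by close to 0, in nearly all pairs compared, which are not independent. The third tested probe set, 1452483_a_at, was above background on 2 control and 3 mutant arrays, and its change of 0.36 had an SE of 0.47 and turned negative under 4 alternatives. The fourth was above background on 0 control and 2 mutant arrays and was not tested. Epicardial markers were higher alongside Cd44: the summed normalized signal of 8 tested ones was 5475 to 6843 in the controls and 7879 to 11425 in the mutants. All 8 had positive changes (median 0.60), none past the threshold, and 7 of them were above background on every array. The sum of 10 cardiomyocyte markers was 92948 to 96748 against 100212 to 103305. Of 10 macrophage and blood markers, 3 were bright enough to be tested, with sums of 280 to 540 and 311 to 639, which overlapped. The part of these cell types in the Cd44 values was not tested.

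Hyal2, a hyaluronidase anchored to the cell surface, was dim. Its signals were 110 (control 1), 626, 195 and 213 in the controls and 61.0, 116, 176 and 116 in the mutants, and 3 arrays of each group exceeded background. The change was -0.0023 (SE 0.44, limma adjusted p = 0.998), and the widely spread groups overlapped.

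**Figure D3:**
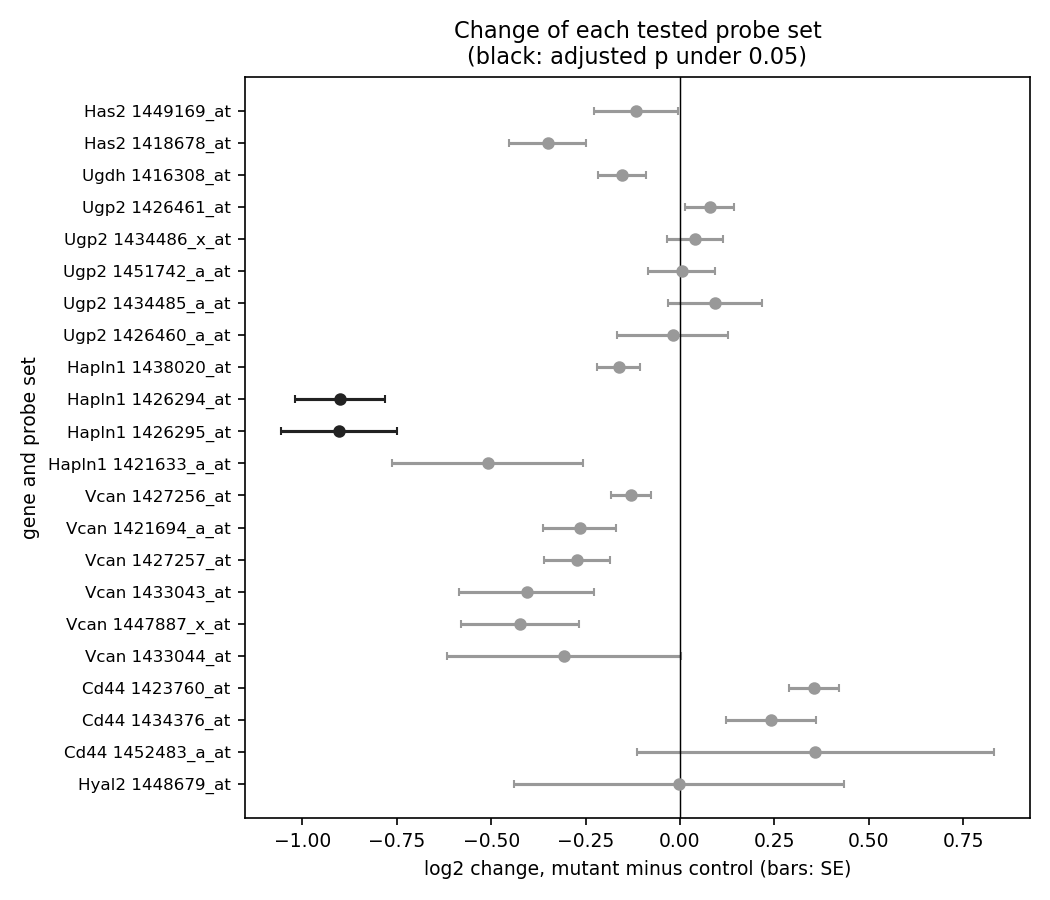
Each point is the log2 change, mutant minus control (x axis), of 1 tested probe set (y axis), with its SE as the bar. Black marks the 2 Hapln1 probe sets with an adjusted p under 0.05. All Vcan points are left of 0, where they lay in quantile normalized data but the 3 brightest did not with median-centred arrays, and all 3 Cd44 points are right of 0, of which the dimmest turned under 4 alternatives.

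Counted together, 2 of the 22 tested hyaluronan probe sets passed as lower, against 0.0185% of all 27022 tested probe sets (5), and 0 passed as higher, against 0.0259% (7). At an unadjusted limma p under 0.05, 10 of the 22 were lower and 1 was higher, where the shares over all tested probe sets were 5.33% and 7.31%. Mutant pools lay wholly below control pools for 5 of the 22 (3.19% over all probe sets) and wholly above for 2 (4.44%). The median change of the 22 was -0.14, and that of all tested probe sets 0.03. These 22 come from 7 genes, 6 of them from Vcan and 5 from Ugp2, and probe sets of 1 gene read the same transcripts, so they are not independent. The genes were also chosen with earlier results of these data known, so an excess over the general shares is no independent support. With arrays centred on their medians 19 of them passed as higher and 0 as lower, along with 17322 higher and 1832 lower probe sets in all, and 15 of the 22 lay above the median change. On the authors' scaling 2 of the 22 passed as lower and 1 as higher.

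**Figure D4:**
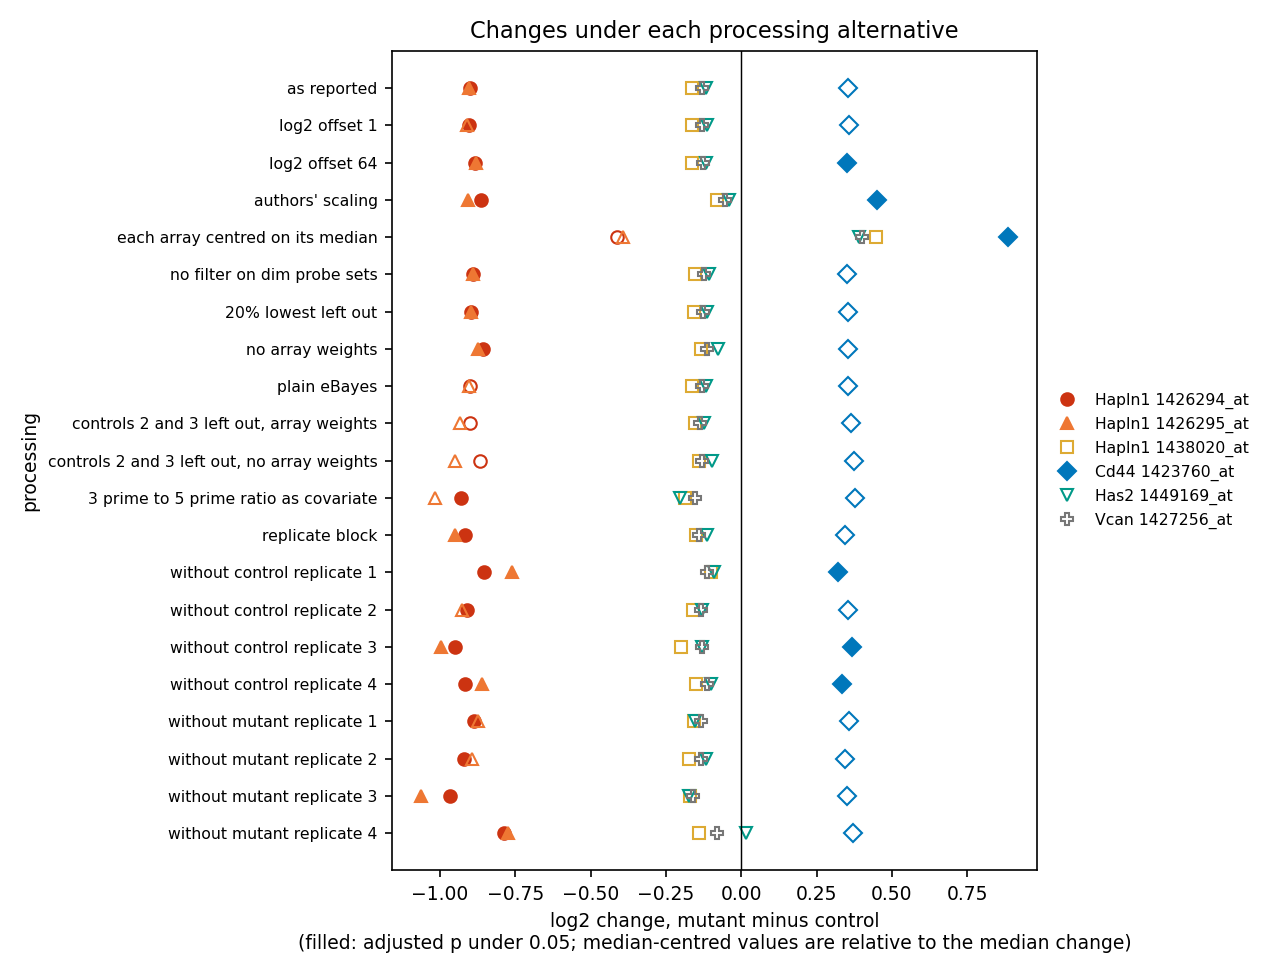
The x axis gives the log2 change, mutant minus control, of 6 probe sets, and each line of the y axis is 1 way of processing. Filled symbols have an adjusted p under 0.05, and values with median-centred arrays are plotted relative to the median change of 1.13. Plotted so, both lower Hapln1 probe sets lie left of 0 and Cd44 right of 0 throughout (unsubtracted, the Hapln1 changes with median-centred arrays were 0.72 and 0.74), while Has2, Vcan and the brightest Hapln1 probe set cross 0 when each array is centred on its median, and Has2 also without mutant 4.

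Other genes of hyaluronan and versican biology were read from 7 lists of 75 genes in all, each on its brightest tested probe set. The lists, too, were chosen with earlier results of these data known. Of these 75, 50 had a tested probe set, 30 with negative and 20 with positive changes and a median of -0.08. Over all tested probe sets 46.2% of changes were negative. Counts of direction by list rest on 3 to 11 tested genes each. In limma 0 passed in either direction, the smallest adjusted p being 0.154. At an unadjusted limma p under 0.05 there were 6 lower and 3 higher of the 50, where the shares over all probe sets were 5.33% and 7.31%. Groups did not overlap for 5 lower and 2 higher genes of the 50, where the shares over all probe sets were 3.19% and 4.44%. These shares cover dimmer probe sets too, whereas the 50 are each gene's brightest, so the sets compared are not alike.

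Enzymes of the precursor sugars had 4 negative and 5 positive changes among 9 tested genes. Gfpt1, which starts the pathway to UDP-N-acetylglucosamine, stood at log2 10.56, 10.26, 10.57 and 10.22 in the controls and 10.03, 9.31, 9.99 and 10.07 in the mutants. The groups did not overlap, but the change of -0.48 (SE 0.17) did not pass (limma adjusted p = 0.288), and of its 4 other tested probe sets 2 had positive changes. Pgm3, a later enzyme of that pathway, had a change of 0.30 (SE 0.21).

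Among partners of versican, 3 genes were tested and all had negative changes. Tnc, the adhesive glycoprotein tenascin C, which binds versican, had the smallest p of the 50 genes. It stood at log2 9.39, 9.66, 9.09 and 9.26 in the controls and 8.55, 8.67, 8.65 and 8.28 in the mutants, with no overlap. The change was -0.83 (SE 0.19, limma adjusted p = 0.154). Fbln2, a fibulin, had a change of -0.19 (SE 0.34) and was above background on 2 control arrays and on all 4 mutant arrays.

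Enzymes that build the chondroitin sulfate chains carried by versican had 7 negative and 4 positive changes among 11 tested genes. Csgalnact1, which adds the first N-acetylgalactosamine of the chain, stood at log2 8.88, 8.44, 8.42 and 8.70 in the controls and 7.61, 7.28, 7.92 and 7.94 in the mutants. Its change was -0.93 (SE 0.25, limma adjusted p = 0.219), and its other probe set, at -0.98 (SE 0.50), likewise had no overlap between groups. Chst11, a chondroitin sulfotransferase, had a change of -0.63 (SE 0.26) with overlap.

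Proteases that cut versican had 5 positive changes and 1 negative among 6 tested genes. Adamts9 went from 12.18 ± 0.08 to 12.37 ± 0.06 (SD, n = 4 each) with no overlap on its brightest probe set (change 0.16, SE 0.07, limma adjusted p = 0.341), while its dimmer probe sets overlapped (-0.09 and 0.38). Adamts4 had the largest change of the 6, standing at log2 8.92, 5.88, 5.27 and 8.63 in the controls and 9.40, 8.92, 9.72 and 9.68 in the mutants. Among the controls only numbers 1 and 4, those of low background, exceeded background, and its change of 1.49 (SE 0.54, limma adjusted p = 0.331) was 0.87 without controls 2 and 3, 0.93 without control 3, 3.44 without control 1 (adjusted p = 0.0143) and 3.11 without control 4 (adjusted p = 0.0175). Its second probe set, 1455965_at, had a change of 1.64 (SE 0.41, limma adjusted p = 0.195) with no overlap, but was above background on only 1 control array.

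Linkers and binding proteins other than Hapln1 had 5 negative and 3 positive changes among 8 tested of 17 listed genes. Ptx3, a pentraxin that helps crosslink hyaluronan matrices, had a change of -0.97 (SE 0.46) and Itih5, a heavy chain of the inter-alpha-trypsin inhibitor family, one of 0.44 (SE 0.23). Receptors and the proteins that join Cd44 to the cytoskeleton had 6 negative and 3 positive changes among 9 genes. Radixin (Rdx) had a change of -0.11 (SE 0.05) and moesin (Msn) one of -0.12 (SE 0.06), and neither passed. With median-centred arrays both lay above the median change, by 0.38 and 0.57. In the turnover list 4 of 4 tested genes had negative changes, with -0.21 (SE 0.13) for the cell surface hyaluronidase Cemip2 and -0.19 (SE 0.18) for the lysosomal glucuronidase Gusb. Cemip2 also lay above the median change with median-centred arrays, by 0.37.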

How the data were processed

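Pools were amplified from 50 ng RNA (NuGen Ovation) for Affymetrix Mouse 430 2.0 arrays, per the labels. The authors deposited 1 linear intensity for each probe set and array. Their tool was MAS5, per the submitters' processing notes, and the sources used here give no version and no detection calls. Their scaling left the mean at 714.971 on every array, while medians ran from 71.5 to 268.

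Intensities were taken as log2(signal + 16), which understates changes of dim genes, and quantile normalized because 2% trimmed means differed by 1.12 times, over the limit of 1.1. Of 45101 probe sets, the 64 array controls were left out, and then the 40% of the rest lowest in mean. This left 27022 for 12069 named genes. Mutant and control pools were compared with limma 3.58.1 in R 4.3.3 (array weights, eBayes with trend and robust options, two-sided, Benjamini-Hochberg over all tested probe sets, threshold 0.05). In simulated data this procedure recovered 8.5%, 31% and 77% of 200 log2 changes of 0.5, 1 and 2. False calls there numbered 1, 2 and 12. Most changes of 1 or less were thus missed, so a change that did not pass is not shown to be absent. Group means are unweighted, whereas changes come from the weighted fit. P-values measure the spread between pools, and 4 arrays a group limit the precision.

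Gene names came from the platform annotation, where 34958 probe sets had 1 symbol, 932 several and 9211 none. RefSeq tables matched 9 analysed members by Entrez ID. Every member probe set is described, and from each pathway list the 2 genes of smallest p above background on at least 2 arrays of each group. The rule allowed 3, and further ones were left out for space. Genes most like Hapln1 were the nearest 5 by each measure. Members and lists were chosen with earlier results of these data known. Ratios of probe set pairs were added after the data were seen. Arrays with the same number had correlations of deviations of -0.11, 0.0058, -0.13 and 0.17, so numbers were used only as names. The background correction and the slide could not be varied with these values.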

Additional observations from a re-analysis of the deposited data

Results flagged for a closer look

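Among 72 groups of 4 arrays examined for a single value far from the other 3, 6 were singled out. In independent groups chance gives about 5%, but these share arrays and some share a gene, so that rate is only a guide. For Cd44 1434376_at, mutant 3 had a log2 value of 10.50 and the other mutants 10.42 to 10.43. For the dim Cd44 1452483_a_at, control 3 was at 4.66 and the other controls at 7.13 to 7.55. Gfpt1 was at 9.31 in mutant 2 and at 9.99 to 10.07 in the other mutants. Ptx3 was at 5.24 in mutant 1, where it was not above background, and at 7.01 to 7.13 in the others. Cemip2 was at 11.43 in control 2 against 11.93 to 11.95. Adamts9 was at 12.07 in control 3 against 12.21 to 12.23. Of these 6 values, 3 came from controls 2 and 3, the arrays of highest background.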

How the results depend on the processing

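Each of 36 probe sets was recomputed under 20 alternatives, 720 values in all: 645 kept their direction and their side of the threshold (with median-centred arrays, relative to the median change), 13 lost a call, 22 gained one and 40 changed sign. Where a call or a sign moved, the cause was not tested. All tested probe sets had 5 lower and 7 higher calls as reported, with 2 lower and 0 higher among hyaluronan genes. With an offset of 1, 1 hyaluronan probe set was lower, as Hapln1 1426295_at missed the threshold (-0.91); with an offset of 64, 1 was higher, with 12 lower and 22 higher in all. The authors' scaling gave 22 lower and 41 higher calls, 1 of them a higher hyaluronan probe set, 2 lower pathway genes, a pathway median of -0.18 and -0.16 for Cd44 1452483_a_at. Median-centred arrays gave 1832 lower and 17322 higher calls, with 0 lower and 19 higher hyaluronan probe sets and 4 lower and 32 higher pathway genes, all counted before the median change was subtracted. Relative to the median change, values were then -0.41 and -0.39 for the 2 lower Hapln1 probe sets (limma adjusted p = 0.235 and 0.262), 0.45 for the brightest, 0.39 and 0.13 for Has2, 0.50 for Ugdh, 0.34 for Ugp2 1426460_a_at, 0.40, 0.18 and 0.17 for Vcan, 0.38 for Rdx, 0.57 for Msn and 0.37 for Cemip2. By this relative test Vcan 1433044_at passed as lower (-1.44, limma adjusted p = 2.24e-05), as did Ptx3 (-2.16, 2.85e-07), Tnc (-0.93, 0.00622), Csgalnact1 (-1.12, 0.00146) and Chst11 (-1.17, 0.000718). Passing as higher were Cd44 1423760_at (0.88, 0.00726) and 1434376_at (0.74, 0.0305), Ugp2 1426461_at (0.67, 0.0459), 1434486_x_at (0.69, 0.0420) and 1434485_a_at (0.76, 0.0246), Adamts4 (2.98, 5.15e-07) and Adamts9 (0.81, 0.0145). Ugp2 1426460_a_at was also at 0.027 with no filter (12 lower, 14 higher calls), 0.0054 with 20% left out (13 and 20) and 0.074 without array weights (10 lower), where Fbln2 was at 0.015. Plain eBayes gave 0 lower and 0 higher limma calls (1214 and 1808 at an unadjusted p under 0.05) and 0 hyaluronan calls, with -0.90 and -0.90 for Hapln1 (adjusted p = 0.294 and 0.350).

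Without controls 2 and 3 there was 1 lower and 1 higher call and 0 hyaluronan calls. With array weights Hapln1 was at -0.90 and -0.93, Ugp2 1451742_a_at at -0.051 and Cd44 1452483_a_at at -0.029. Without weights these were -0.87, -0.95, -0.081 and -0.15, with -0.054 for Ugp2 1434485_a_at, 0.094 for Vcan 1433044_at and a pathway median of -0.023. The RNA integrity covariate gave 2 lower and 2 higher calls, 1 of them Hapln1, with -1.02 for Hapln1 1426295_at, -0.31 for Cd44 1452483_a_at, 0.32 for Hyal2 and -0.013 for Ugp2 1451742_a_at. With the replicate number as a block there were 34 lower and 26 higher calls, Ugp2 1451742_a_at was at -0.0099, and no hyaluronan call changed.

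Leaving out 1 array at a time gave 2 (without mutant 1) to 371 lower calls (without control 4) and 3 (without mutant 1) to 1417 higher ones (without control 1). Further libraries moved them by over 1.5 times: without control 3 there were 20 and 89, without mutant 3 39 and 15, without mutant 2 8 lower, without control 1 263 lower and without control 4 1291 higher. Hyaluronan calls were 1 to 2 lower and 0 to 1 higher, and pathway calls 0 to 1 lower and 0 to 4 higher, with medians of -0.085 to -0.021. Ranges that held both signs were -0.17 to 0.016 for Has2 1449169_at, -0.029 to 0.10, -0.022 to 0.22 and -0.059 to 0.17 for Ugp2 1451742_a_at, 1434485_a_at and 1426460_a_at, -0.31 to 0.25 for Hyal2, -0.16 to 0.014 for Msn and -0.33 to 0.30 for Fbln2. Hapln1 1426295_at ran from -1.06 to -0.76. The signals of Has1, Has3 and Hyal2 near background limit what their values can show.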
